A study of Homo sapiens with 12 samples.

Results

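Claudins and other tight junction genes were examined in 3 established prostate cell lines. The members were the 10 genes CLDN1, CLDN3, CLDN4, CLDN7, CLDN11, CLDN12, OCLN, TJP1, F11R and MARVELD2, found by gene name among the 58302 genes of the deposited expression table. Total RNA was sequenced in 4 libraries each of BPH-1, labelled a benign prostate line, and of DU145 and PC3, labelled prostate cancer (PCa) lines. All 3 lines carried the genotype label WT, received no treatment according to the labels, and grew in DMEM with 10% fetal bovine serum and antibiotics. BPH-1 is an immortalised epithelial line from a benign hyperplastic prostate, DU145 comes from a brain metastasis and PC3 from a bone metastasis. Each group is therefore 1 line, and line and disease state cannot be told apart. The study sequenced these lines to find genes whose expression differed between benign and PCa cells.

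Tight junctions seal the space between neighbouring epithelial cells near their apical surface. Claudins span the membrane 4 times and form the paired strands that set which ions and solutes pass. Occludin (OCLN) and tricellulin (MARVELD2) belong to another tetraspan family, with tricellulin at the corners where cells meet. JAM-A (F11R) is an immunoglobulin-like adhesion protein, and ZO-1 (TJP1) is the cytoplasmic scaffold that ties these proteins to actin. In prostate epithelium these genes are commonly used as signs of an epithelial, polarised state.

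Values are FPKM, read fragments scaled to the exon length of the gene and to the depth of the library. The depth to which the libraries were scaled, inferred from the steps of the values, was 12950665 to 16309559 reads. The epithelial keratins were read in every library, KRT8 at 14.7 to 41.7 FPKM. KRT19 was at 20.0 to 39.9 FPKM in BPH-1, 164 to 307 in PC3 and 15.6 to 31.2 in DU145, and KRT18 at 31.4 to 44.9, 26.8 to 34.7 and 52.8 to 99.2. EPCAM was at 57.7 to 63.2 FPKM in BPH-1, 6.92 to 11.1 in PC3 and only 0.166 to 0.573 in DU145, and CDH1 was at 16.3 to 44.6, 0.427 to 1.42 and 0.0851 to 0.297. Most luminal prostate genes were low in every line. Of 7, 6 were under 1 FPKM in all BPH-1 libraries, 5 in all PC3 libraries and all 7 in DU145. In DU145, 5 were at 0 in all libraries, and KLK3 was at 0 in all 12. Of the immune markers, CD3E was at 0 everywhere and PTPRC was at 1.15 to 1.54 FPKM in all BPH-1 libraries and in DU145 replicates 1 and 2, but at 0 in DU145 replicates 3 and 4 and in PC3. CD68 was in all 12 libraries, at 3.43 to 6.57 FPKM in BPH-1, 6.86 to 13.5 in PC3 and 3.83 to 9.95 in DU145. The fibroblast gene DCN had 102 and 51 reads in DU145 replicates 3 and 4 and 0 in the other 10 libraries. Other genes of its list went different ways. LUM had 8 and 9 reads in DU145 replicates 3 and 4 but 20 and 18 in BPH-1 replicates 2 and 4. COL1A1 averaged 2.44 FPKM in BPH-1, 3.51 in PC3 and 0.438 in DU145, and PDGFRB 0.316, 0.0501 and 0.439. CDH1 near 0 in DU145 and low in PC3, EPCAM near 0 in DU145, a leukocyte gene in BPH-1 and DU145 libraries and DCN in the other DU145 libraries go against the labels of epithelial lines. The identity and purity of the DU145 libraries and the purity of the BPH-1 libraries are therefore in doubt, which bears on every comparison below. For PC3 a doubt about epithelial identity rests on CDH1, with EPCAM read but below BPH-1. The keratins KRT8, KRT18 and KRT19 were read in all PC3 libraries, KRT19 above both other lines. Without DU145 replicates 1 and 2, and equally without replicates 3 and 4, the 4 calls of members in DU145 against BPH-1 were kept and that of CLDN11 in PC3 against DU145 was lost; for BPH-1, where all libraries hold PTPRC, no such comparison could be made.

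Libraries of the PCa lines differed by a trend with GC content. In DU145 replicates 1 and 3 and PC3 replicate 4, gene levels, set against the mean of the line, rose with the GC content of the gene, with a Spearman correlation across 11895 genes of 0.68, 0.71 and 0.62. DU145 replicates 2 and 4 went the opposite way, at -0.74 and -0.63, as did PC3 replicates 1 and 2, at -0.61 and -0.52, so the values do not show which libraries of a line are the odd ones. BPH-1 libraries lay between -0.22 and 0.14. The 3 libraries of positive trend, and separately the 4 of negative trend, were left out of the comparisons that include DU145. Where a call of a member changes there, that value is given, and in both cases the libraries kept still carry a trend. For PC3 against BPH-1, PC3 replicate 4 was left out alone, but PC3 replicates 1 and 2 were not left out together. Whether calls of that comparison hold without both was not tested.

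RefSeq gave the sequence before the start of 9 of the 10 members (GRCh38.p14, 15 entries of 250 bases). The upstream sequences of the 3 genes below are shown because they belong to the member that was higher in both PCa lines (CLDN3), the member that separated PC3 from the other lines (CLDN1) and a member that was lower in both PCa lines (MARVELD2). Only the longest run outside GENCODE 29 exons is printed, 5′ to 3′ on the gene's strand. Capitals mark GC boxes (GGGCGG on either strand, each overlapping match counted).
CLDN3, chr7:73770271-73770520, minus strand: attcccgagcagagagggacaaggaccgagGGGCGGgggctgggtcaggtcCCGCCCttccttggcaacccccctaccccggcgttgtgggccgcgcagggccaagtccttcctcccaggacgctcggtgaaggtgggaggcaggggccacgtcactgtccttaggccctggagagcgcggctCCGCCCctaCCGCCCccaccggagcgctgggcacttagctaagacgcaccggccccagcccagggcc
CLDN1, chr3:190322476-190322540, minus strand: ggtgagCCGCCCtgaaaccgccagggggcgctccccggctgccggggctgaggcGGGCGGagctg
MARVELD2, chr5:69414866-69415064, plus strand: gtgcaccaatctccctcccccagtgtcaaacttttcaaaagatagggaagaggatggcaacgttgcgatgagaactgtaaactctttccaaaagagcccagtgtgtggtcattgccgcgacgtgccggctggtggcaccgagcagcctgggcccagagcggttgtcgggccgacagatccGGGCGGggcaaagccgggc

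Of the 15 windows of 250 bases, 11 held a GC box, a motif that 42.6% of all 35116 RefSeq windows of that length hold. The E-box CAGGTG, which repressors of epithelial genes such as ZEB1 and SNAI1 are known to bind, was searched on both strands. It was in 4 of the 15 windows, which belong to 3 members, CLDN7, OCLN and TJP1, and in 17.5% of all windows. The grainyhead motif AACCGGTT was in none of the members' windows and in 0.117% of all windows. One CLDN7 window held 4 E-boxes, and 0.464% of all windows hold 3 or more. Its sites are shown with up to 10 bases on each side and the E-box in capitals, because CLDN7 was lower in both PCa lines. They lie 174, 135, 20 and 9 bases before the start, and the whole window is also exonic in another GENCODE 29 transcript.
CLDN7, chr17:7262637-7262662, minus strand: tcttcctcctCACCTGggcaaggagg
CLDN7, chr17:7262598-7262623, minus strand: acttccggttCAGGTGagtgtccctt
CLDN7, chr17:7262483-7262508, minus strand: tacatatactCAGGTGcgccccacct
CLDN7, chr17:7262479-7262497, minus strand: aggtgcgcccCACCTGtcc
These matches are letters in a window, not measured binding. ZEB1 itself was at 0.0162 to 0.0773 FPKM in BPH-1, 0.0849 to 0.355 in PC3 and 0.0713 to 0.484 in DU145.

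In PC3 compared with BPH-1, CLDN3 rose while CLDN1, CLDN7, OCLN, TJP1 and MARVELD2 fell. These 6 of 10 members passed the test (limma, Benjamini-Hochberg adjusted p under 0.05), 1 higher and 5 lower, where 67.6% of the 16345 genes tested passed, 27.2% higher and 40.5% lower. With the GC trend divided out 5 members passed, 1 higher and 4 lower, where 63.6% of genes did, and OCLN lost its call. In DU145 compared with BPH-1, CLDN3 rose and CLDN7, CLDN11 and MARVELD2 fell. These were 4 of 10 members, 1 higher and 3 lower, where 62.6% of 17070 genes passed, 30.3% higher and 32.3% lower. With the GC trend divided out, or with DU145 replicates 1 and 3 left out, 6 members passed, 3 higher and 3 lower, where 62.4% and 59.0% of genes passed. With replicates 2 and 4 left out 6 passed, 1 higher and 5 lower, where 72.0% of genes did. In PC3 compared with DU145, CLDN3 and CLDN11 were higher and CLDN1 was lower, 3 of 10 members where 48.2% of 16210 genes passed, 20.0% higher and 28.3% lower. Without the 3 libraries of positive GC trend 5 members passed, 1 higher and 4 lower, where 58.0% of genes passed. Without the 4 of negative trend 2 passed, 1 higher and 1 lower, where 41.4% did. With the GC trend divided out 4 passed, 2 higher and 2 lower, where 58.8% did. Libraries of the lines did not overlap for 6 members in PC3 against BPH-1, for 5 in DU145 against BPH-1 and for 2 when the PCa lines were compared, where this held for 64.5%, 59.4% and 46.5% of genes tested. All 10 members passed the filter on low values in each comparison. The median change of the members was -0.94 on the log2(FPKM + 1) scale in PC3 and -0.87 in DU145 against BPH-1, and 0.05 in PC3 against DU145, beside -0.13, -0.03 and -0.05 over all genes tested. The 3 comparisons share libraries, so their counts are not independent, and fewer expressing cells and less RNA per cell cannot be told apart in bulk samples. Differences below are on the log2(FPKM + 1) scale, which understates changes of low genes, and ± is the SE of the fit, while levels are given in FPKM with ± as the SD (n = 4 libraries).

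**Figure D1:**
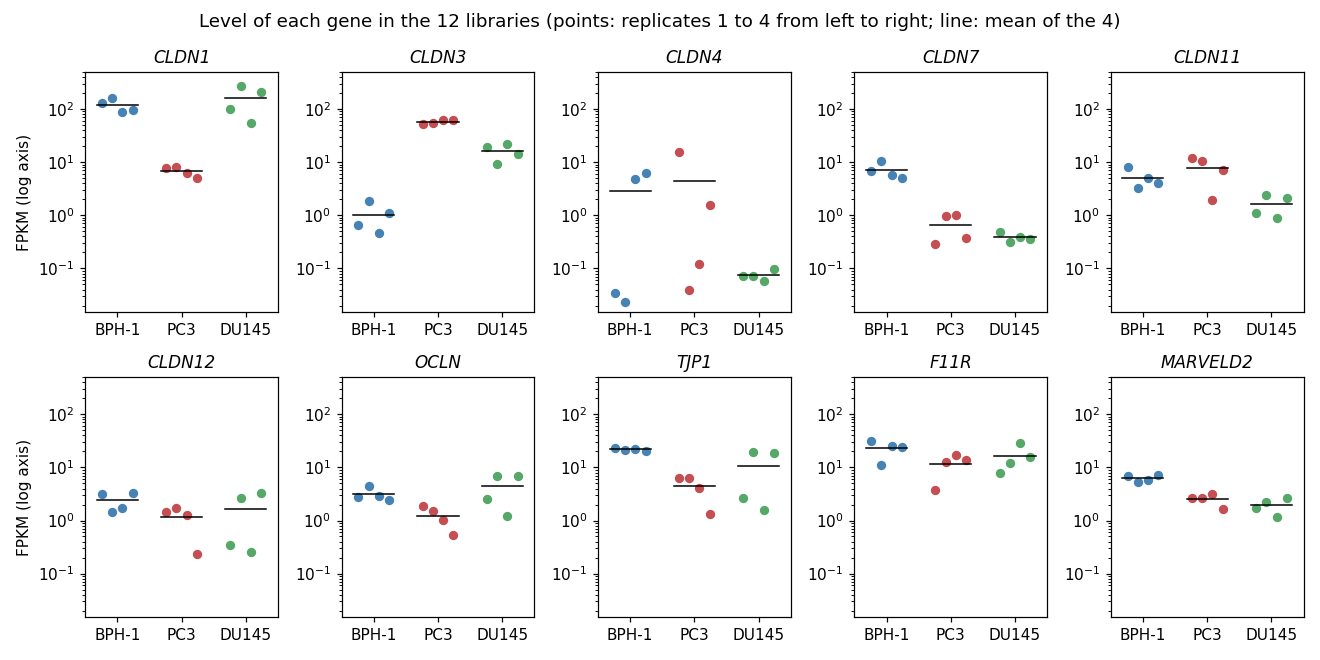
FPKM on a log axis of each member in the 4 libraries of BPH-1, PC3 and DU145; points are replicates 1 to 4 from left to right and the black line is their mean. CLDN3 did not overlap between any of the lines, CLDN1 was low in PC3 alone, and CLDN4 ranged from 0.0388 to 15.7 within PC3.

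Among the strand-forming claudins, CLDN3 (chromosome 7, 73768997 to 73770270, minus strand, a single-exon gene) showed the widest range of line means. This claudin tightens the barrier of many simple epithelia. Its level was 0.662, 1.85, 0.455 and 1.11 FPKM in BPH-1 replicates 1 to 4, counted from 9 to 36 reads. It was 52.9, 54.7, 60.9 and 62.8 FPKM in PC3, and 18.9, 9.14, 21.8 and 14.0 in DU145. Every PC3 library was above every DU145 library, and every DU145 library above every BPH-1 library. The mean of 57.8 ± 4.80 FPKM in PC3 was 56.8 times that of BPH-1 (1.02 ± 0.618), a difference of 4.91 ± 0.20 (adjusted p = 8.1e-08). In DU145 the mean of 16.0 ± 5.55 was 15.7 times that of BPH-1, a difference of 3.05 ± 0.29 (adjusted p = 1.56e-05). PC3 exceeded DU145 by 1.86 ± 0.24 (adjusted p = 0.000203).

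CLDN1 (chromosome 3, 190305701 to 190322475, minus strand), a claudin essential to the epidermal barrier and abundant in basal cells of stratified and prostate epithelium, was the most abundant member in BPH-1 and in DU145. It was at 128, 163, 89.6 and 93.8 FPKM in BPH-1 and at 7.71, 7.93, 6.12 and 5.002 in PC3. DU145 libraries were at 101, 271, 53.5 and 205 FPKM. PC3 lay below all libraries of the other lines, whereas DU145 overlapped BPH-1. The mean in BPH-1 was 17.7 times that in PC3, a difference of -3.93 ± 0.21 (adjusted p = 4.19e-07), and the mean in DU145 was 23.6 times that in PC3, a difference of -4.13 ± 0.45 (adjusted p = 7.47e-05). DU145 and BPH-1 differed by 0.20 ± 0.45, with a 95% interval from -0.81 to 1.20. With DU145 replicates 1 and 3 left out, DU145 exceeded BPH-1 by 1.03 (adjusted p = 0.0133). With the trend of each library against GC content divided out it did so by 1.64 (adjusted p = 0.00019). With replicates 2 and 4 left out the direction turned, to -0.64, which did not pass the test.

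CLDN7 (chromosome 17, 7259903 to 7263983, minus strand) encodes a claudin that also lies along the basolateral membrane and binds EPCAM. Its level was 6.70, 10.6, 5.83 and 5.03 FPKM in BPH-1. It was 0.284, 0.961, 1.02 and 0.378 in PC3 and 0.491, 0.319, 0.397 and 0.354 in DU145. Neither PCa line overlapped BPH-1, and the PCa lines overlapped each other. The mean in BPH-1 was 10.7 times that in PC3 (difference -2.26 ± 0.23, adjusted p = 2.44e-05) and 18.0 times that in DU145 (difference -2.49 ± 0.20, adjusted p = 6.41e-06). PC3 and DU145 differed by 0.23 ± 0.15, with a 95% interval from -0.12 to 0.57. ELP5 lies on the opposite strand and overlaps CLDN7. It was at 2.88 to 3.69 FPKM in BPH-1, 4.27 to 6.49 in PC3 and 6.25 to 10.7 in DU145, higher where CLDN7 was lower, and whether the counting used strand is not given in the sources used here.

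CLDN4 (chromosome 7, 73799542 to 73832693, plus strand), another barrier-tightening claudin, differed most between libraries of the same line. It was at 0.0345, 0.0232, 4.84 and 6.32 FPKM in BPH-1, from 6, 4, 847 and 1112 reads. In PC3 it was at 15.7, 0.0388, 0.121 and 1.57 FPKM, from 2299, 6, 19 and 229 reads. In DU145 it stayed low, at 0.0712, 0.0707, 0.0575 and 0.0992 FPKM. The highest library exceeded the lowest 272-fold in BPH-1, 406-fold in PC3 and 1.73-fold in DU145. A spread of at least 50-fold within a line, with counts under 3 reads set to 3, was found for 21 of 11113 protein-coding genes with 100 or more reads in the highest BPH-1 library and 14 of 10116 in PC3, and CLDN4 was the only member among them in either line. No comparison of lines passed the test, with differences from BPH-1 of 0.04 ± 0.98 in PC3 (adjusted p = 0.976) and -1.27 ± 0.61 in DU145 (adjusted p = 0.0923), and of 1.31 ± 0.76 between PC3 and DU145 (adjusted p = 0.191). The 95% interval of the first ran from -2.16 to 2.23, so changes of either sign could not be told from none. Without BPH-1 replicate 1 the difference of DU145 from BPH-1 was -1.71 (adjusted p = 0.0302), and without replicate 2 it was -1.72 (adjusted p = 0.0305).

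CLDN11 (chromosome 3, 170418865 to 170860380, plus strand) forms the junction strands of myelin and of Sertoli cells. It was at 7.997, 3.21, 5.07 and 3.98 FPKM in BPH-1. It was at 12.03, 10.6, 1.91 and 7.08 in PC3 and at 1.08, 2.42, 0.871 and 2.16 in DU145. All DU145 libraries were below all BPH-1 libraries, whereas PC3 replicate 3 fell within the range of DU145. DU145 fell against BPH-1 by 1.19 ± 0.28 (log2 difference -1.19, adjusted p = 0.00433), and PC3 exceeded DU145 by 1.60 ± 0.45 (adjusted p = 0.0166). The latter call was lost with DU145 replicates 1 and 3 and PC3 replicate 4 left out (1.21, adjusted p = 0.17), with the 4 libraries of negative GC trend left out (1.30, adjusted p = 0.0891), with DU145 replicates 1 and 2, the libraries with leukocyte genes, left out (1.67, adjusted p = 0.0774) and with replicates 3 and 4, those with DCN, left out (1.53, adjusted p = 0.0866). PC3 and BPH-1 differed by 0.41 ± 0.45 (adjusted p = 0.436), and by 0.88 without PC3 replicate 3 (adjusted p = 0.023). The deposited locus of CLDN11 spans 441516 bases and other genes within it, so its reads may not all come from CLDN11.

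CLDN12 (chromosome 7, 90383721 to 90513402, plus strand), a claudin without the PDZ-binding tail that links other claudins to ZO-1, was low in all lines. It was at 3.10, 1.44, 1.75 and 3.34 FPKM in BPH-1 and at 1.47, 1.75, 1.26 and 0.232 in PC3. In DU145 it was at 0.347, 2.64, 0.255 and 3.35. Replicates 1 and 3 of DU145 and replicate 4 of PC3 were the low ones, and all lines overlapped. The differences were -0.66 ± 0.28 for PC3 against BPH-1 (adjusted p = 0.0586), -0.54 ± 0.42 for DU145 against BPH-1 (adjusted p = 0.28) and -0.13 ± 0.45 for PC3 against DU145 (adjusted p = 0.841). Without the 3 libraries of positive GC trend, PC3 against DU145 came to -0.68 (adjusted p = 0.0108), and without the 4 of negative trend to 0.36 (adjusted p = 0.354). DU145 against BPH-1 came to -1.35 (adjusted p = 0.00232) without DU145 replicates 2 and 4. It turned to 0.27 without replicates 1 and 3 and was also positive with the GC correction, passing the test in neither case. PC3 against BPH-1 passed the test without BPH-1 replicate 2 (-0.81, adjusted p = 0.038) and without PC3 replicate 2 (-0.80, adjusted p = 0.0413). With the GC correction it turned to 0.075 and did not pass. GTPBP10 and CDK14 overlap CLDN12, and CDK14 was at 2.21 to 3.44 FPKM in BPH-1, 0.628 to 2.05 in PC3 and 0.115 to 0.357 in DU145, so reads at the shared bases are uncertain.

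Among the other membrane proteins, tricellulin (MARVELD2, chromosome 5, 69415112 to 69444330, plus strand) was lower in both PCa lines. It was at 6.90, 5.28, 5.73 and 7.24 FPKM in BPH-1. It was at 2.66, 2.68, 3.15 and 1.64 in PC3 and at 1.68, 2.22, 1.14 and 2.66 in DU145. No library of a PCa line reached the lowest of BPH-1. The difference from BPH-1 was -1.05 ± 0.16 in PC3 (adjusted p = 0.000342) and -1.34 ± 0.20 in DU145 (adjusted p = 0.000267), and the PCa lines differed by 0.28 ± 0.21 (adjusted p = 0.314).

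Occludin (OCLN, chromosome 5, 69492292 to 69558104, plus strand) was at 2.78, 4.44, 2.89 and 2.48 FPKM in BPH-1 and at 1.89, 1.497, 1.04 and 0.542 in PC3. In DU145 it was at 2.56, 6.99, 1.21 and 6.89, where replicates 2 and 4 were above all BPH-1 libraries and replicate 3 below them. PC3 did not overlap BPH-1, and the difference was -0.90 ± 0.21 (adjusted p = 0.00415), but it was 0.15 (adjusted p = 0.338) with the GC trend divided out. OCLN has the lowest exonic GC content of the members, 40.0%. DU145 and BPH-1 differed by 0.21 ± 0.40 (adjusted p = 0.662). Without DU145 replicates 1 and 3 the difference was 0.96 (adjusted p = 0.00458), and with the GC trend divided out it was 1.48 (adjusted p = 7.51e-05). Without replicates 2 and 4 it turned to -0.54, which did not pass the test. PC3 against DU145 came to -1.11 ± 0.42 (adjusted p = 0.0546). It passed the test under 7 of 22 alternatives, with an adjusted p (limma) down to 5.03e-05. These included the GC correction, median-of-ratios and upper-quartile scaling, and 1 fit over all lines. It was -1.70 (adjusted p = 0.000671) without the 3 libraries of positive GC trend and -1.48 (adjusted p = 0.00696) without DU145 replicate 3. Without DU145 replicates 3 and 4 it was -1.29 (adjusted p = 0.0356). OCLNP1, a pseudogene of OCLN, was at 3.04 to 7.24 FPKM in BPH-1, 1.25 to 2.34 in PC3 and 1.53 to 8.89 in DU145, so reads could have been split between both copies. In reads OCLNP1 was far below OCLN, at 32 to 75 against 298 to 522 in BPH-1. The ranges were 11 to 22 against 54 to 188 in PC3, and 16 to 81 against 144 to 878 in DU145.

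JAM-A (F11R, chromosome 1, 160995211 to 161021348, minus strand) was at 31.0, 11.1, 25.5 and 24.3 FPKM in BPH-1. It was at 3.72, 12.8, 17.2 and 13.6 in PC3 and at 7.84, 12.1, 28.9 and 15.4 in DU145, and all lines overlapped. No comparison passed the test, with differences of -0.98 ± 0.44 for PC3 against BPH-1 (adjusted p = 0.072), -0.55 ± 0.40 for DU145 against BPH-1 (adjusted p = 0.247) and -0.43 ± 0.48 for PC3 against DU145 (adjusted p = 0.494). The first passed without BPH-1 replicate 2 (-1.28, adjusted p = 0.0262) and without PC3 replicate 3 (-1.20, adjusted p = 0.0485), and the second without DU145 replicates 3 and 4 (-1.07, adjusted p = 0.0479). The overlapping gene AL591806.3 was at 0.0902 to 0.804 FPKM in BPH-1, 0 to 1.74 in PC3 and 0.0563 to 0.714 in DU145.

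The scaffold ZO-1 (TJP1, chromosome 15, 29699367 to 29968865, minus strand) had the tightest replicates of all members in BPH-1, at 23.4, 20.8, 22.7 and 20.0 FPKM. It was at 6.40, 6.204, 4.03 and 1.35 in PC3, with every library below BPH-1 and a difference of -2.18 ± 0.32 (adjusted p = 0.000254). In DU145 it was at 2.61, 19.8, 1.60 and 18.9. All 4 were below the lowest BPH-1 library, but replicates 2 and 4 only just, and the difference of -1.52 ± 0.63 did not pass the test (adjusted p = 0.059). With DU145 replicates 1 and 3 left out it was -0.15 (adjusted p = 0.219), whereas it passed without replicate 2 (-1.99, adjusted p = 0.0164), without replicate 4 (-1.97, adjusted p = 0.0192) and without both (-2.89, adjusted p = 7.87e-06). PC3 and DU145 differed by -0.66 ± 0.73 (adjusted p = 0.494), by -1.66 (adjusted p = 0.00103) without the 3 libraries of positive GC trend and by 0.17 (adjusted p = 0.763) without the 4 of negative trend. HMGN2P5, a pseudogene that lies within TJP1, was at 146 to 192 FPKM in BPH-1, 207 to 255 in PC3 and 89.4 to 129 in DU145.

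**Figure D2:**
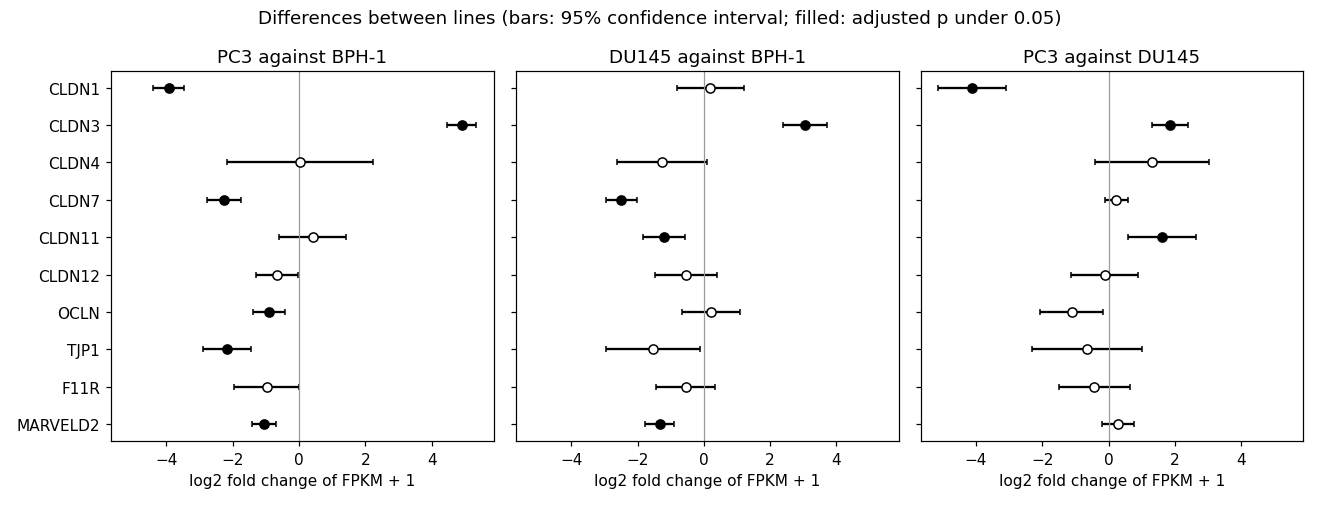
Log2 fold change of FPKM + 1 of each member, with PC3 and DU145 set against BPH-1 and PC3 set against DU145; bars are 95% confidence intervals and filled points have an adjusted p under 0.05. CLDN3 lies to the right of 0 in all 3, CLDN7 and MARVELD2 to the left in both PCa lines, and the interval of CLDN4 in PC3 against BPH-1 runs from -2.16 to 2.23.

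The spread within DU145 was shared by several members. Mean FPKM of replicates 2 and 4 was 9.95 times that of replicates 1 and 3 for CLDN12, 9.20 times for TJP1, 3.68 times for OCLN, 3.08 times for CLDN1, 2.35 times for CLDN11 and 1.73 times for MARVELD2, and these pairs of libraries did not overlap. The ratio of replicates 1 and 3 to replicates 2 and 4 was 1.75 for CLDN3 and 1.32 for CLDN7, again with no overlap, while F11R and CLDN4 overlapped. CLDN3 has the highest exonic GC content of the members, 69.2%, and CLDN7 the next, 58.8%, whereas OCLN, CLDN12, CLDN1 and TJP1 have 40.0%, 41.5%, 41.8% and 44.0%. The order did not hold throughout. CLDN4, at 57.4%, and CLDN11, at 51.7%, had the higher mean in replicates 2 and 4, but F11R, at 48.7%, in replicates 1 and 3. These libraries were paired after their GC trend had been seen, so the ratios are a description, and the part that GC content or the state of the RNA plays in them was not tested.

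**Figure D3:**
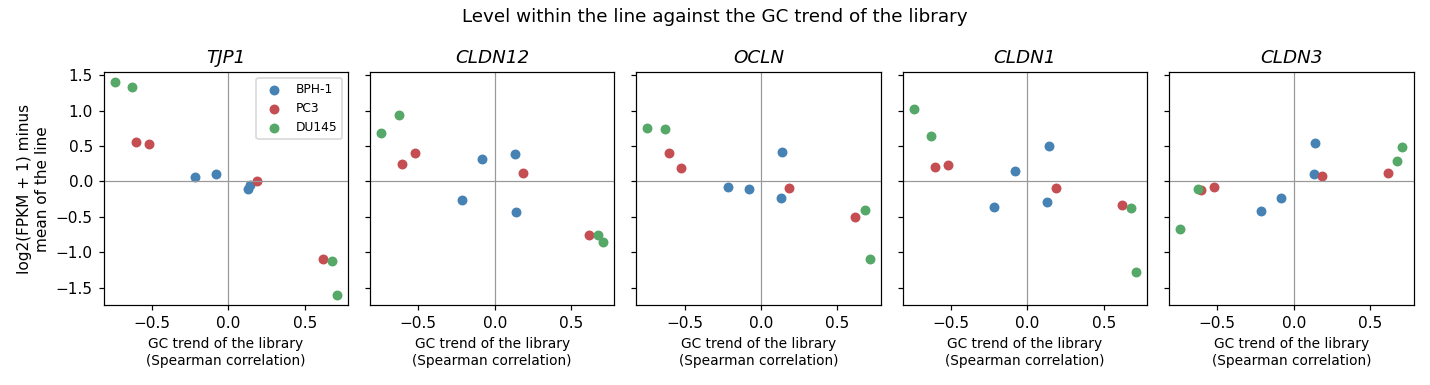
Level of TJP1, CLDN12, OCLN, CLDN1 and CLDN3 as log2(FPKM + 1) minus the mean of the line, against the Spearman correlation between gene GC content and the level of all genes in that library relative to its line; 1 point per library. The DU145 libraries with correlations of 0.68 and 0.71 and the PC3 library with 0.62 lie lowest of their line for TJP1 and CLDN12, and CLDN3 runs the opposite way.

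Levels of the members were also ordered within each line. In BPH-1, CLDN1 (119 ± 34.4 FPKM) stood above F11R (23.0 ± 8.46) and TJP1 (21.7 ± 1.59), which overlapped, and these stood above the other 7 members, from CLDN7 (7.03 ± 2.45) to CLDN3, whose neighbours in the order all overlapped. In PC3, CLDN3 stood above F11R (11.8 ± 5.72), and from F11R down each neighbour overlapped the next, to CLDN7 (0.660 ± 0.382). In DU145, CLDN1 (158 ± 98.5) came first and F11R (16.0 ± 9.09), CLDN3, TJP1 (10.7 ± 9.99) and OCLN (4.41 ± 2.97) followed with overlap. CLDN7 (0.390 ± 0.0745) did not overlap CLDN11, the next above it, and CLDN4 (0.0746 ± 0.0175) lay below every other member. The authors' gene length sums distinct exons, which for CLDN4 is 11275 bases against 4702 when exons are merged. Per merged exons, and leaving out CLDN11, 5 of the other 9 members changed place in BPH-1, 6 in PC3 and 4 in DU145, but the first place stayed the same in each line.

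Likeness was described for the 3 members with the widest range of line means, by Pearson r of log2(FPKM + 1) over the 12 libraries among 13780 genes. The genes most like CLDN3 were COL6A2 (r = 0.995), a collagen chain, ZP3 (r = 0.994) and TNNT1 (r = 0.993), a troponin. Those most like CLDN1 were SGTB (r = 0.994), TRABD2A (r = 0.990) and LAMC1 (r = 0.990), a laminin chain. Among those most like CLDN7 were MTUS1 (r = 0.989), at a mean of 2.79 FPKM in BPH-1, 0.177 in PC3 and 0.05003 in DU145, and the antisense gene BOLA3-AS1 (r = 0.986). With 3 lines, these values mostly reflect differences between line means.

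A list of 58 other tight junction genes was described beside the members. Some of them passed the filter on low values through only 1 of the lines compared, which largely set their direction. In PC3 compared with BPH-1, 35 of the 44 tested passed, 7 higher and 28 lower, with a median of -0.80, where 67.6% of all genes tested passed. In DU145 it was 29 of 43, 9 higher and 20 lower, with a median of -0.42, where 62.6% of all genes passed, and in PC3 compared with DU145 18 of 36, 6 higher and 12 lower, with a median of -0.34, where 48.2% passed. Without the 3 libraries of positive GC trend the last count was 27 of 38, 6 higher and 21 lower, where 58.0% of all genes passed, and without the 4 of negative trend it was 14 of 36, 5 higher and 9 lower, where 41.4% passed. Lower genes outnumbered higher ones among those that passed in each comparison, also under each other scaling run. This was so among all genes tested too, as deposited, with 4443 higher and 6614 lower in PC3, 5174 and 5515 in DU145, and 3240 and 4581 in PC3 against DU145. Upper-quartile scaling turned the balance of all genes in DU145 to 5690 higher and 5040 lower, and the GC correction to 5541 and 5111.

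Other claudins went both ways. In PC3 against BPH-1, 6 of 18 were tested, and 3 were higher and 3 lower, beside 27.2% and 40.5% of all genes. CLDN14 passed the filter on low values only through PC3, and CLDN9, CLDN10 and CLDN16 only through BPH-1. The filter thus largely set the direction of these genes, and the count is only a description. CLDN14, a claudin of the inner ear and kidney, had 258 reads in PC3 and 0 in BPH-1 and in DU145, which makes it at least 99.4-fold higher than in BPH-1 and at least 98.7-fold higher than in DU145 (against 3 reads over the 4 libraries). CLDN15, a cation-pore claudin, was at 2.41 FPKM in PC3 and 0.526 in BPH-1 (1.14 ± 0.16, adjusted p = 0.000188). CLDN23 was at 7.09 FPKM in DU145 and 0.621 in BPH-1 (2.33 ± 0.19, adjusted p = 7.05e-06).

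Of the scaffold proteins, 7 of 9 tested were lower in PC3 than in BPH-1 and none higher, where 40.5% of all genes were lower. MAGI1 (0.11 ± 0.14) and TJP3 (-0.33 ± 0.24) did not pass. In DU145, 3 of 10 were lower and 1 higher, where 32.3% and 30.3% of all genes were. The higher one was paracingulin (CGNL1), a junctional relative of cingulin, at 6.59 FPKM in DU145, 0.379 in BPH-1 and 0.0896 in PC3 (2.40 ± 0.24 for DU145 against BPH-1, adjusted p = 2.06e-05, and -2.73 ± 0.24 for PC3 against DU145, adjusted p = 1.95e-05). Among the tetraspan and adhesion proteins 4 of 6 were lower in PC3, and in DU145 3 of 5 were lower and 1 higher. Of all genes, 40.5% were lower in PC3, and 32.3% lower and 30.3% higher in DU145. In PC3 against BPH-1, MARVELD3, JAM3, CXADR, ILDR2 and the scaffold CGNL1 passed the filter on low values only through BPH-1. MARVELD3 and JAM3 did so in DU145 against BPH-1. The filter thus largely set the direction of these genes, and the counts are only a description.

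All 9 polarity proteins passed in PC3 against BPH-1, 4 higher and 5 lower, and 5 of 9 passed in DU145, 2 higher and 3 lower, beside the 67.6% and 62.6% of all genes. PARD3, the scaffold of the PAR complex, rose to 20.6 FPKM in PC3 from 3.30 in BPH-1 (2.33 ± 0.12, adjusted p = 3.26e-07). CRB3, the apical Crumbs protein, was at 0.140 FPKM in PC3 and 5.03 in DU145 (-2.39 ± 0.16, adjusted p = 4.44e-06). It had only 2 to 8 reads in PC3 libraries, so it passed the filter on low values only through the line that PC3 was compared with.

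Of the regulators and partners, 9 of 14 in PC3 were lower than in BPH-1 and none higher, and in DU145 9 were lower and 3 higher, beside 40.5% of all genes lower in PC3 and 32.3% lower and 30.3% higher in DU145. EPCAM, a surface glycoprotein that binds CLDN7, fell from 60.8 FPKM in BPH-1 to 0.376 in DU145 (-5.50 ± 0.15, adjusted p = 2.29e-08) and was higher in PC3 than in DU145 by 2.87 ± 0.18 (adjusted p = 2.87e-06). GRHL2, a grainyhead factor known to drive claudin expression in epithelia, was at 12.7 FPKM in BPH-1, 0.0201 in PC3 (-3.74 ± 0.12, adjusted p = 2.2e-08) and 0.0147 in DU145 (-3.75 ± 0.15, adjusted p = 9.04e-08). The epithelial splicing factor ESRP1 was at 11.9 FPKM in BPH-1 and 0.0506 in PC3 (-3.61 ± 0.11, adjusted p = 2.3e-08). Its paralogue ESRP2 was at 6.89 FPKM in PC3 and 1.26 in DU145 (1.796 ± 0.15, adjusted p = 1.59e-05). ARHGEF2 (GEF-H1), a guanine nucleotide exchange factor held at junctions by cingulin, was at 43.9 FPKM in DU145, 6.12 in BPH-1 and 4.996 in PC3 (2.62 ± 0.20 for DU145 against BPH-1, adjusted p = 4.48e-06, and -2.87 ± 0.20 for PC3 against DU145, adjusted p = 5e-06).

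**Figure D4:**
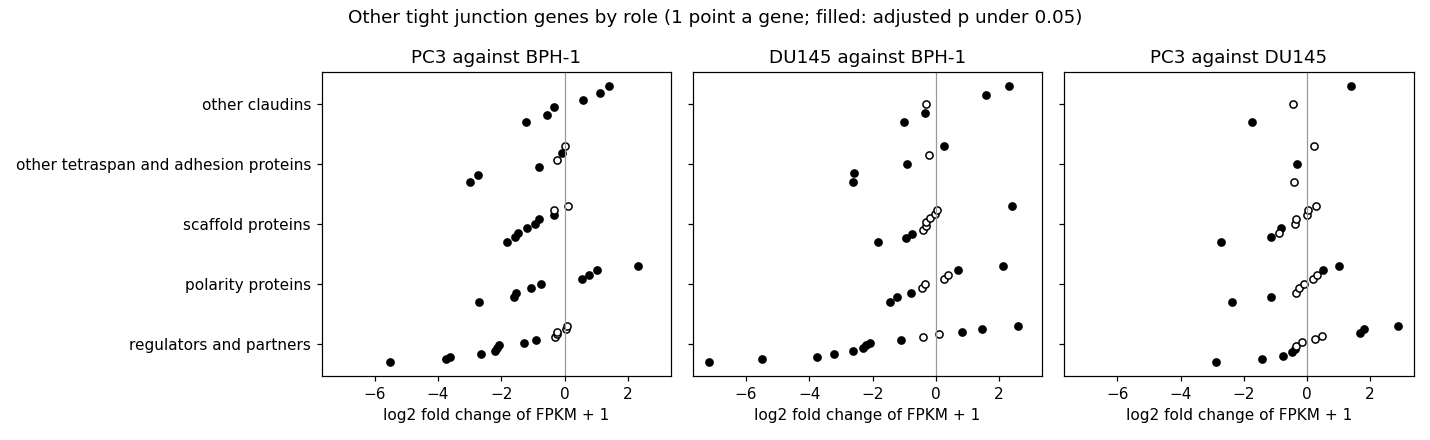
Log2 fold change of FPKM + 1 of the other tight junction genes tested, grouped by role, in the 3 comparisons; 1 point per gene, filled where the adjusted p is under 0.05. All filled points of the scaffold proteins in PC3 against BPH-1 and most points of the regulators of both PCa lines lie left of 0, and the claudins lie on both sides.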

How the data were processed

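The authors deposited 1 table of normalized values for 58302 genes with GRCh38 coordinates, and its header names no unit. The submitters' processing notes name CASAVA 1.8, HISAT2 2.1.0 and edgeR; strand use, filters and what the replicates are (separate cultures or not) are not given in the sources used here, so p-values measure only the spread between these libraries, which may be technical. By their steps, the deposited values are FPKM. With gene length as the sum of distinct GENCODE 29 exons, 93.0% to 94.1% of low values (under 30 reads, within 0.05 of a whole read) of coding genes were whole numbers of reads, against 20.6% to 23.8% with merged exons, which gave each library's reads. For CLDN11 and MARVELD2 the step size itself set the length. Intervals and floors based on reads cover counting error only. The 263 genes without a GENCODE 29 length were left out.

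The filter asked for 10 or more reads, scaled to the median depth, in 4 libraries and 15 reads in total. log2(FPKM + 1) was fitted with limma 3.58.1 (intensity trend, R 4.3.3), holding only the lines compared, with Benjamini-Hochberg adjustment over all genes tested. On simulated data for PC3 against BPH-1 with 16327 genes, 84 of 100 changes of 2-fold and 98 of 100 of 4-fold were recovered, with 8 unchanged genes called. With a GC trend added to 1 group, 6211 unchanged genes were called, and 9 after the GC correction. The simulation gave all genes the same relative spread between libraries and gave every library of that group the same trend. In the data the trends had opposite signs within PC3 and within DU145, so these figures may not carry over. The mean chi-square per gene between replicates was 17.3 to 215 over 18 pairs, so none was counted as a duplicate. Exact permutation tests were two-sided, with a smallest p of 0.0286. Python 3.11.15 with numpy 2.4.6, pandas 2.3.3, scipy 1.17.1 and matplotlib 3.10.9 was used otherwise.

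The members, the list of other tight junction genes and the tests were chosen with earlier results of these data known. Named are all members, for each comparison the 3 largest rises and 3 largest falls of the list among those that passed the threshold of 0.05 without overlap of the lines' libraries, the 3 genes most like each of 3 members, and genes that share reads with a member; results of some genes that this rule names are not reported here. EPCAM, CDH1, PTPRC, ZEB1 and the other cell markers come from the marker lists, and LYZ and FCGR3B were added beside PTPRC. MAGI1, TJP3, CLDN9, CLDN10, CLDN16, MARVELD3, JAM3, CXADR, ILDR2 and OVOL1 are named outside this rule, to qualify a count. The alternatives were other filters, pseudocount 0.1, a replicate block, 1 fit over all lines, 3 other scalings, voom on the recovered reads, a GC correction (a spline of 5 degrees of freedom, from genes averaging 50 reads or more), leaving out each library, exact permutation tests and a minimum absolute log2 fold change of 1. Leaving out the libraries of positive or of negative GC trend, or those with leukocyte genes or with DCN, was added after seeing the data.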

Additional observations from a re-analysis of the deposited data

Results flagged for a closer look

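CLDN4 in PC3 was examined further because 1 library lay far from the other 3, at 15.7 FPKM against 0.0388, 0.121 and 1.57. It was the only 1 of 30 groups of 4 libraries (10 members in 3 lines) with such a gap. Chance gives about 5% of groups, so 1 of 30 is no more than chance would give. The gap was judged on FPKM, not on the log scale of the tests.

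For 3 members the change against BPH-1 differed between the PCa lines by the test of PC3 against DU145 (limma, adjusted p). The difference on the log2(FPKM + 1) scale was -4.13 for CLDN1 (adjusted p = 7.47e-05, lower in all 4 PC3 libraries), 1.86 for CLDN3 (adjusted p = 0.000203, higher in all 4 PC3 libraries) and 1.60 for CLDN11 (adjusted p = 0.0166, with PC3 replicate 3 inside the range of DU145).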

How the results depend on the processing

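Of the member values under alternatives, 556 kept direction and side of the threshold, 30 passed it newly, 4 no longer passed and 25 changed sign. Each value was counted once. OCLN in PC3 against BPH-1, which also lost its call with the GC correction, stands among the sign changes. CLDN1, CLDN3, CLDN7, TJP1 and MARVELD2 kept their calls against BPH-1 in PC3 under all alternatives that tested them, as did CLDN3, CLDN7, CLDN11 and MARVELD2 in DU145 (the stricter filter left CLDN3 untested in both); OCLN in PC3 did not. Sign changes in PC3 against BPH-1 were CLDN4 at -0.073 with the same sum per library, -0.11 with the GC correction and -0.85 to 0.54 over libraries left out (below 0 without BPH-1 replicate 1 or 2 or PC3 replicate 1), and with the GC correction CLDN12 at 0.075 and OCLN at 0.15. In DU145 against BPH-1 they were CLDN1 at -0.053 with the same sum, -0.15 to 0.62 over libraries left out (below 0 without DU145 replicate 2 or 4), -0.13 without the libraries with leukocyte genes and -0.64 without those of negative GC trend; CLDN12 at 0.20 with the GC correction and 0.27 without the libraries of positive GC trend; and OCLN at -0.045 to 0.57 over libraries left out (below 0 without DU145 replicate 2 or 4) and -0.54 without those of negative GC trend. In PC3 against DU145 CLDN12 was at 0.010 with voom and at -0.41 to 0.19 over libraries left out (above 0 without DU145 replicate 2 or 4 or PC3 replicate 4), and without the libraries of negative GC trend CLDN12 was at 0.36, TJP1 at 0.17 and F11R at 0.0016; F11R was at 0.093 without the libraries with DCN. The cause was not tested. At an absolute log2 fold change over 1, 4424 genes passed in PC3 and 4895 in DU145 against BPH-1 and 3165 in PC3 against DU145 (11057, 10689 and 7821 without it), and 23 other tight junction genes in PC3 against BPH-1 (22 with the stricter filter, which tests fewer genes). Without the libraries of positive GC trend, 5 members (1 higher) passed in PC3 against DU145, while 4 (2 higher) did with the GC correction. In DU145 against BPH-1, 6 (3 higher) passed under either alternative. With the same sum per library 8 (7 lower) passed in PC3 against BPH-1, where 69.3% of genes passed. Leaving out each library gave 6 to 8, 4 to 5 and 3 to 4 members, 33 to 37, 26 to 30 and 16 to 22 other tight junction genes, and 10482 to 11320, 9623 to 11466 and 6929 to 8135 of all genes. The same sum per library moved the median of all genes from -0.13 to -0.28 in PC3 and from -0.03 to -0.16 in DU145 against BPH-1, and the share of higher calls from 40.2% to 30.3% and from 48.4% to 38.6%; the latter was 53.0% with upper-quartile scaling and 52.0% with the GC correction. Same-numbered libraries correlated at -0.70 to 0.56, so the numbers did not pair samples; with a replicate block 6, 5 and 3 members and 10710, 10152 and 6654 genes passed, TJP1 newly in DU145 against BPH-1 (adjusted p = 0.0475). Reads were few for CLDN4 in DU145 (10 to 15) and CLDN3 in BPH-1 (9 to 36). They were also few in some libraries for CLDN4 in BPH-1 (down to 4) and in PC3 (down to 6).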

Other observations

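Markers of cell state other than junction genes also separated the lines. The basal genes KRT5, KRT14, KRT15 and TP63 summed to 299 to 427 FPKM in BPH-1, 1.08 to 2.43 in PC3 and 0.173 to 1.16 in DU145. KRT15, at 0.513 to 2.17 FPKM in BPH-1 and 1.08 to 2.42 in PC3, did not separate these lines. Vimentin (VIM), the intermediate filament of mesenchymal cells, was at 1.11 to 1.32 FPKM in BPH-1, 96.8 to 144 in PC3 and 51.4 to 68.9 in DU145. N-cadherin (CDH2) was at 3.20 to 5.96 FPKM in BPH-1 and 26.2 to 36.7 in PC3 but at 0.00965 to 0.0671 in DU145. HOXB13, a homeobox factor of the prostate, was at 69.4 to 81.1 FPKM in PC3, 1.34 to 1.89 in BPH-1 and 0 in DU145. Fibroblast and smooth muscle genes summed to 2.86 to 4.96 FPKM in BPH-1, 3.67 to 5.01 in PC3 and 1.36 to 3.16 in DU145, where DCN was at 0.373 and 0.214 in replicates 3 and 4 and at 0 in replicates 1 and 2, and endothelial genes to 0.231 to 0.623, 1.21 to 2.31 and 0.0640 to 0.350. PECAM1 alone made up most of the endothelial sum in PC3, at 1.19 to 2.28 FPKM, whereas CDH5 and VWF were lower there than in BPH-1 on average (0.00175 against 0.134 FPKM and 0.00585 against 0.0844).

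The neutrophil and monocyte genes LYZ and FCGR3B followed PTPRC. LYZ was at 7.61 to 10.1 FPKM in BPH-1, 7.76 and 8.63 in DU145 replicates 1 and 2, 0 in replicates 3 and 4, and at most 0.167 in PC3. With DU145 replicates 1 and 2 left out, and also with replicates 3 and 4, which hold DCN, left out, the calls of CLDN3, CLDN7, CLDN11 and MARVELD2 in DU145 against BPH-1 were kept.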
